A study of Drosophila melanogaster with 4 samples.

Results

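Chromosome 4 of Drosophila melanogaster carried 222 of the 19572 peaks that the authors identified for the proteins ASH1 and FSH in S2-DRSC cells. These peaks were chosen by their chromosome alone, so that no score or overlap entered the choice. They comprised 116 of 10748 ASH1 peaks and 106 of 8824 FSH peaks. S2-DRSC is a permanent cell line of embryonic origin. It was grown as a single culture condition, and no treatment, knockdown or genotype contrast belongs to these libraries. For ASH1, chromatin was precipitated with rabbit antibodies against the amino-terminal and the carboxy-terminal part of the protein (ASH1N and ASH1C). For FSH, the labels name 1 antibody for FSH-S and 1 for FSH-S and FSH-L, whereas the protocol describes 1 antibody for FSH-L only and 1 for the part common to both isoforms. The 2 libraries of each protein were merged by the authors before peaks were determined, and this mismatch therefore cannot be followed in the lists. The score of a peak is the authors' value from the comparison with input chromatin and was taken as the negative log10 of the P value, multiplied by 10. It is thus read as a significance and not as a size of enrichment. Peaks called strong or weak below are so by this score. A value of exactly 3100 is shared by many peaks of both lists, and peaks at this value have no order among themselves. As each protein has a single pooled list, there is no spread between replicates. Differences between chromosome 4 and other chromosomes were described and not tested, since the peaks of a list are not replicates. Wilson intervals at 95% are given for shares, as if peaks were independent, and they cover only the counting error.

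ASH1 is a histone methyltransferase of the Trithorax group, whose members keep genes in an active state. FSH is the only BET protein of the fly and binds acetylated histone tails with its bromodomains. Chromosome 4, also known as the dot chromosome, is the smallest autosome. Its gene-bearing part is interspersed with repeats and is known for heterochromatin proteins such as HP1a and for the chromosome-specific protein POF, although many of its genes are transcribed. Among its genes are ci, the transcription factor of Hedgehog signalling, ey and toy, which direct eye development, pan, the nuclear effector of Wingless signalling, and the Pax gene sv. A gene annotation of Release 5, to which all positions refer, was not used here, and no peak is assigned to a gene. Heterochromatin marks were not analysed here either.

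Both proteins were found along the whole length of chromosome 4. The first peaks started at 62899 for ASH1 and 62902 for FSH, and the last peaks ended at 1347624 and 1347630. Both first peaks had the score of 3100, and the last ones had scores of 632 (ASH1) and 586 (FSH). The first 62.9 kb of the sequence held no peak of either list. Up to the last peak end, ASH1 had 86.1 peaks per Mb and FSH 78.7. On the long arms, ASH1 density ranged from 84.2 per Mb on 2L to 95.5 on 2R, so that chromosome 4 lay within this range. FSH density ranged from 66.1 per Mb on X to 78.3 on 2R, and chromosome 4 was slightly above the highest arm. When the arms were divided into 116 windows of 1 Mb, however, 42 windows had a higher FSH density and 67 a higher ASH1 density than chromosome 4. These windows were introduced after the values of chromosome 4 were known. The number of FSH peaks per ASH1 peak was 0.91 on chromosome 4 and 0.78 to 0.83 on the long arms. Hence, the surplus of ASH1 peaks that all 5 long arms had was small on chromosome 4.

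The peaks covered 107.1 kb for ASH1 and 124.8 kb for FSH, which is 7.95% and 9.26% of the span. Among the long arms, only X had lower values (7.24% and 7.89%), and the other arms lay between 9.58% and 11.3%. FSH covered 1.17 times the length covered by ASH1, against 0.97 to 1.09 times on the long arms. The RefSeq table of Release 6 lists 80 protein-coding genes on chromosome 4. This corresponds to 1.45 ASH1 peaks and 1.32 FSH peaks per gene, compared to 0.70 to 0.86 and 0.56 to 0.67 on the long arms. Peaks per gene were therefore higher on chromosome 4 than on any long arm, while peaks per Mb of ASH1 were not. These ratios combine gene numbers of one release with peaks of another and say nothing about which peak lies at which gene. The paper also cautions that the peak caller tends to split wide signals, so that peaks do not count bound elements. After neighbours within 1 kb had been joined, ASH1 had 56.4 groups per Mb, fewer than on any long arm (61.5 to 72.3). FSH had 57.9, within the range of the arms (50.2 to 62.7).

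**Figure D1:**
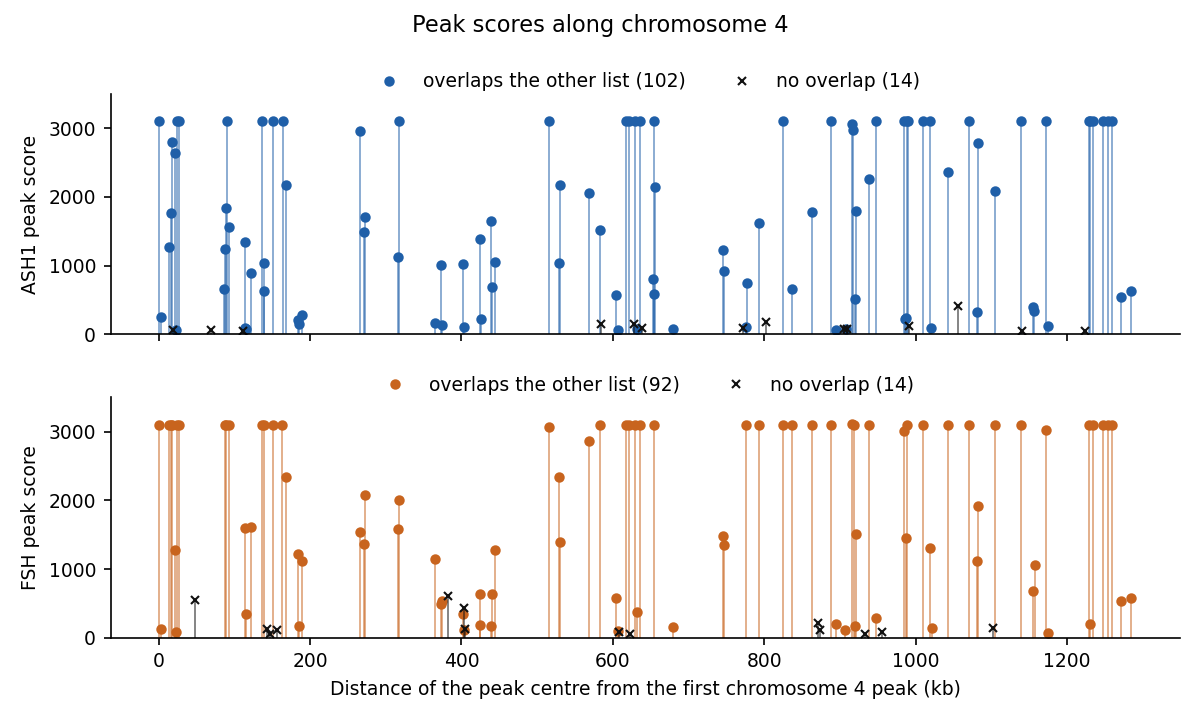
Score of each peak on chromosome 4 (vertical axis, no unit) against the distance of its centre from the first peak of the chromosome in kb, with ASH1 above and FSH below. Circles are peaks that overlap the other list (102 for ASH1 and 92 for FSH) and crosses are the 14 peaks of each list that do not, which all lie below a score of 614.

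At a scale of 100 kb, peak numbers varied less along chromosome 4 than along the long arms. In the 13 full bins of 100 kb, ASH1 had 5 to 11 peaks with a median of 9, and FSH 2 to 12 peaks with a median of 8. No bin of this size was empty. Across 1188 such bins on the long arms, ASH1 numbers ranged from 0 to 31 (median 8) and FSH numbers from 0 to 27 (median 6), and 5.05% and 5.81% of the bins had no peak. The variance of the bin counts was 0.58 times their mean for ASH1 and 1.10 times for FSH on chromosome 4, against 3.91 and 3.11 on the long arms. The difference was smaller in bins of 50 kb, where the ratio was 1.90 for ASH1 and 1.92 for FSH on chromosome 4, against 2.998 and 2.41 on the long arms. Of the 26 full bins of this size on chromosome 4, 2 had no peak (7.69%), compared to 16.0% without ASH1 and 17.3% without FSH on the long arms. The bins of the arms also differ between distant regions, which a single short chromosome cannot show. Windows of 1 Mb on the arms ranged from 21 to 151 ASH1 peaks and from 22 to 112 FSH peaks per Mb. The spread within stretches of the arms as short as chromosome 4 was not compared.

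Stretches without a peak of either protein were taken between peaks, which leaves out the empty first 62.9 kb of chromosome 4. The longest extended from 252618 to 328385 (75.8 kb), from 507686 to 576601 (68.9 kb) and from 742915 to 807819 (64.9 kb). They were followed by those from 1237475 to 1286293 (48.8 kb) and from 381163 to 427324 (46.2 kb). Together they make up 22.6% of the span. On each of the long arms the longest stretch was between 203 kb and 350 kb. Stretches of more than 30 kb took up 31.1% of chromosome 4, compared to 39.6% to 51.0% of the long arms. The typical stretch was not short, however, with a median of 4182 bp on chromosome 4 and 3310 to 4022 bp on the arms. Chromosome 4 therefore differed by the lack of very long empty stretches, for which a span of 1.35 Mb also leaves little room.

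At short range the peaks were clustered. Neighbouring ASH1 peaks were separated by 1 kb or less in 34.8% of cases on chromosome 4, against 24.2% to 27.1% on the long arms, and FSH peaks in 26.7% of cases, against 18.4% to 24.1%. When peaks with such gaps were joined, the 116 ASH1 peaks formed 76 groups and the 106 FSH peaks 78 groups. Groups of 2 or more held 56.0% of the ASH1 peaks (41.3% to 44.9% on the long arms) and 45.3% of the FSH peaks (33.2% to 42.2%). For both proteins this was more than on any long arm. The groups remained small, with at most 6 ASH1 and 4 FSH peaks, while up to 10 peaks of either protein formed a group on the arms. Whether a group holds separate sites or a wide signal divided by the peak caller cannot be told from the lists.

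The ASH1 group with most peaks held 6 of them from 1047393 to 1054000. It contained 3 peaks at a score of 3100, and 3 weak ones with scores of 221, 239 and 121. In the same place FSH had a group of 3 peaks from 1046656 to 1052910 with scores of 3007, 1456 and 3100. The weak ASH1 peaks in its middle both lay under the FSH peak with a score of 1456, and the last weak ASH1 peak had no FSH partner.

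Groups of 4 ASH1 peaks were found from 83679 to 91402, from 149067 to 153432, from 715507 to 718578 and from 978717 to 984675. For FSH, 4 peaks were grouped at 83741 to 91685, 464243 to 467853 and 976943 to 984293, and 3 peaks at 149138 to 158228. The groups of both proteins starting near 83.7 kb matched each other peak by peak. There, ASH1 scores were 2639, 60.7, 3100 and 3100 and FSH scores 1278, 87.1, 3100 and 3100, so that the same peak was the weakest in both lists. From 976943 to 984675, FSH scores were 3119, 3100, 179 and 1509 and ASH1 scores 3068, 2977, 512 and 1791, again with the lowest value at the third peak. The FSH group at 464243 was of another kind, with scores of 353, 111, 441 and 130.1, and its last 2 peaks had no ASH1 partner. ASH1 had 2 peaks there, with scores of 1030.4 and 101. The longest joint group of both lists covered 9.16 kb (149067 to 158228), with 5 ASH1 and 3 FSH peaks. It was followed in length by the groups from 83679 to 91685 (8.01 kb) and from 976943 to 984675 (7.73 kb).

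The median length was 745.5 bp for ASH1 (interval of the median 651 to 842 bp) and 929.5 bp for FSH (828 to 1107 bp). Medians on 2L, 2R, 3L and 3R ranged from 864 to 944 bp for ASH1 and from 990.5 to 1115 bp for FSH, and on X they were 667 and 831 bp. Chromosome 4 hence lay between X and the large autosomal arms for both proteins. Of the ASH1 peaks, 6.03% exceeded 2 kb, more than on X (68 of 1889) and fewer than on the other arms (11.5% to 13.8%). Of the FSH peaks, 10.4% exceeded 2 kb, fewer than on any long arm (11.5% to 18.6%). The longest peaks had 3054 bp and 3954 bp, compared to at least 10762 bp and 12831 bp on every long arm. The maximum depends on the number of peaks, which was much smaller on chromosome 4. The order of the medians also depended on the joining of neighbours. After peaks with gaps of up to 1 kb had been joined, the ASH1 median on chromosome 4 (1256 bp) was above that of all 5 long arms (785.5 to 1113 bp), whereas the FSH median (1150.5 bp) stayed within their range.

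**Figure D2:**
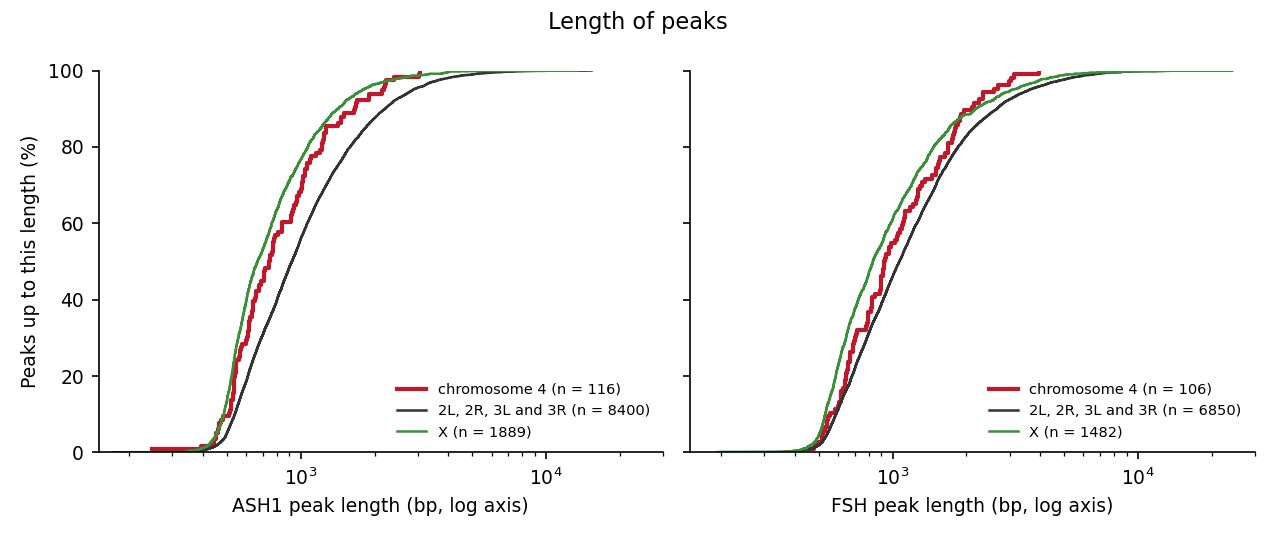
Cumulative share of peaks (vertical axis, %) up to a given length in bp (horizontal log axis) for ASH1 on the left and FSH on the right. The curve of chromosome 4 lies between X and the large autosomal arms around its medians of 745.5 and 929.5 bp, and ends at 3054 and 3954 bp, where the curves of the arms continue.

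The longest ASH1 peak extended from 154795 to 157848 (score 1559.5). It was followed by the peaks at 576659 to 579701 and at 88996 to 91402, both with a score of 3100. Among FSH peaks, the longest extended from 154275 to 158228 (score 3100), before those at 715493 to 718616 (score 3100) and at 576602 to 579651 (score 3065). The places of the longest ASH1 peak and the longest FSH peak were the same, and a further place was common to both lists. At 88996, the third ASH1 peak also overlapped an FSH peak of 2988 bp. At 715493, in contrast, the long FSH peak faced 4 short ASH1 peaks.

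Many peaks of chromosome 4 had high scores. On chromosome 4, 31 of 116 ASH1 peaks (26.7%, 19.5% to 35.4%) and 39 of 106 FSH peaks (36.8%, 28.2% to 46.3%) reached 3100 or more. Over the whole genome this applied to 19.3% of ASH1 and 18.5% of FSH peaks. The shares on the long arms were 12.8% to 22.0% for ASH1 and 13.6% to 20.2% for FSH, with the lowest values on X. Chromosome 4 was thus above all 5 long arms for both proteins, and for FSH its interval did not reach any of theirs. A single peak of the chromosome had a number above 3100, with a score of 3119 for FSH at 976943 to 979273. It is not taken as stronger than the peaks at 3100.

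Median scores were 1238 for ASH1 and 1499 for FSH, against 509 to 1009 and 557 to 849 on the long arms. The median FSH peak of chromosome 4 had a percentile rank of 67.8 within the whole FSH list, and the median ASH1 peak a rank of 59.4 within the ASH1 list. Over the 116 windows of 1 Mb on the arms, the share of FSH peaks at 3100 or above ranged from 0% to 35.4%, with a median of 18.1%, and none exceeded chromosome 4. For ASH1, 11 of the 116 windows exceeded it. At the other end of the scale, the lists differed. Scores below 100 were found for 15.5% of the ASH1 peaks on chromosome 4, slightly above the 15.4% on X, but for 7.55% of the FSH peaks, fewer than on any long arm.

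Peaks of high score were more frequent beyond the midpoint of the span. Of 63 ASH1 peaks there, 34.9% had a score of 3100, compared to 17.0% of the 53 before it. For FSH, the shares were 47.2% and 26.4% of 53 peaks each. Before the midpoint, the ASH1 share was thus within the range of the long arms, whereas the FSH share was above it. Peaks at 3100 or above had a lower median length on chromosome 4, with 1023 bp in the ASH1 list and 1555 bp in the FSH list. On the long arms such peaks had medians of at least 1079 bp and 2001 bp, respectively. For FSH the difference lay in the longer of these peaks. Their upper quartile was 2031 bp on chromosome 4 and 3352.5 bp on the long arms, while the lower quartiles were alike (1198 and 1189 bp).

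**Figure D3:**
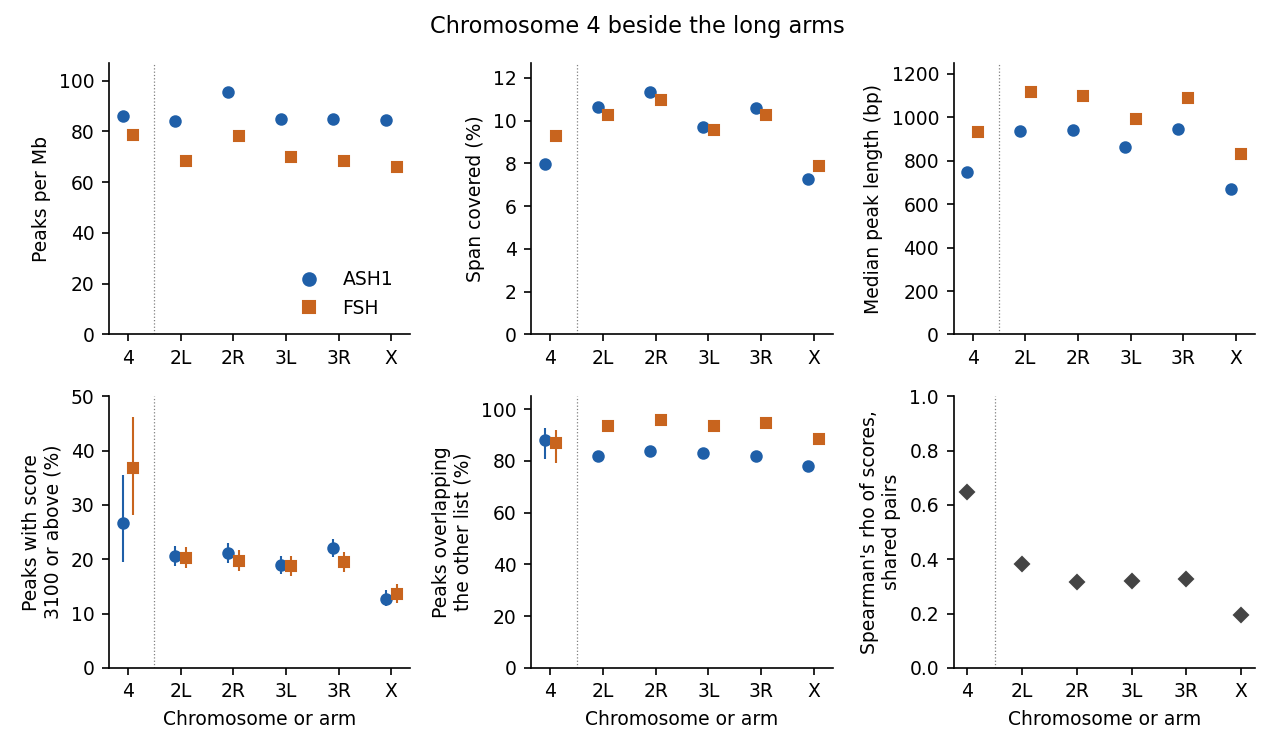
Peaks per Mb, share of the span covered, median peak length, share of peaks with a score of 3100 or above, share of peaks that overlap the other list, and Spearman's rho of the scores of shared pairs for chromosome 4 and each long arm. Bars are Wilson intervals at 95% where drawn, and chromosome 4 shows the highest FSH share at 3100 (36.8%), nearly equal overlap in both directions (87.9% and 86.8%) and the highest rho (0.65).

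Co-localization of both proteins was extensive on chromosome 4 and nearly equal in both directions. An FSH peak overlapped 102 of 116 ASH1 peaks (87.9%, 80.8% to 92.7%), and an ASH1 peak overlapped 92 of 106 FSH peaks (86.8%, 79.0% to 92.0%). Over the whole genome, sharing applied to 82.0% of all ASH1 peaks and to 92.4% of all FSH peaks. ASH1 shares on the long arms lay at 78.1% to 83.8%, FSH shares at 88.5% to 95.8%, and the FSH share exceeded the ASH1 share by at least 10.1 percentage points. On chromosome 4 the ASH1 share was higher by 1.14 percentage points. The ASH1 share was therefore above, and the FSH share below, the range of the long arms, although the lower bound for ASH1 and the upper bound for FSH fall within it. Among windows of 1 Mb, 10 of 116 had a higher ASH1 share and 11 of 116 a lower FSH share than chromosome 4. The position of FSH relative to the arms depended on the rule of overlap. With at least 50% of both peaks, 77.4% of FSH peaks were shared, above X (76.0%) and below the other arms, and 70.7% of ASH1 peaks, below 2R (72.7%) and above the other arms. With scores of at least 100 in both lists, the FSH share of chromosome 4 (84.7%) stayed below all long arms (86.1% to 94.2%). It also did so after neighbours within 1 kb had been joined (87.2% against 91.9% to 97.0%). When peaks below the median score were left out of both lists, the FSH share on chromosome 4 (87.9%) was above all long arms (62.9% to 81.1%). This last rule also removes weaker ASH1 peaks as partners. Without it, FSH peaks of 500 or above were shared alike (97.3% against 97.5%).

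When overlapping peaks of both lists were joined, chromosome 4 held 120 bound regions. Of these, 92 contained both proteins (76.7%, 68.3% to 83.3%), 14 only ASH1 and 14 only FSH. Regions with both proteins made up 68.6% to 79.6% on the long arms, so that chromosome 4 did not stand out in this respect. Regions of ASH1 alone were 11.7% (7.08% to 18.6%) on chromosome 4 and 16.8% to 22.3% on the long arms. Regions of FSH alone were likewise 11.7% (7.08% to 18.6%), compared to 3.56% to 9.14%. On the long arms there were 2.44 to 4.72 ASH1-only regions for each FSH-only region, whereas on chromosome 4 both were equally frequent. Of the DNA covered by ASH1 on chromosome 4, 89.0% was also covered by FSH, more than on any long arm (81.0% to 82.8%). Of the DNA covered by FSH, 76.3% was covered by ASH1, which is above X (74.4%) and below the other arms (82.8% to 85.6%).

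No unshared peak of chromosome 4 had a score above 614. All 78 ASH1 peaks with scores of 500 or above were shared (lower bound 95.3%), as were 73 of 75 FSH peaks (97.3%). On the long arms this applied to 95.1% and 97.5%. Below 500, 24 of 38 ASH1 peaks were shared (63.2%, 47.3% to 76.6%), similar to the 60.8% on the long arms (59.2% to 62.3%). FSH peaks below 500 were shared in 19 of 31 cases (61.3%, 43.8% to 76.3%), against 87.4% (86.2% to 88.4%) on the long arms. On X alone the share was lower, with 80.5% (77.5% to 83.3%). The interval of chromosome 4 overlapped neither of these, closely so for X. All of them treat peaks as independent, however, and some of the unshared FSH peaks were neighbours. The difference was not tested. Within this list, the lower FSH share of chromosome 4 lay in its weak peaks, and not in the strong ones.

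**Figure D4:**
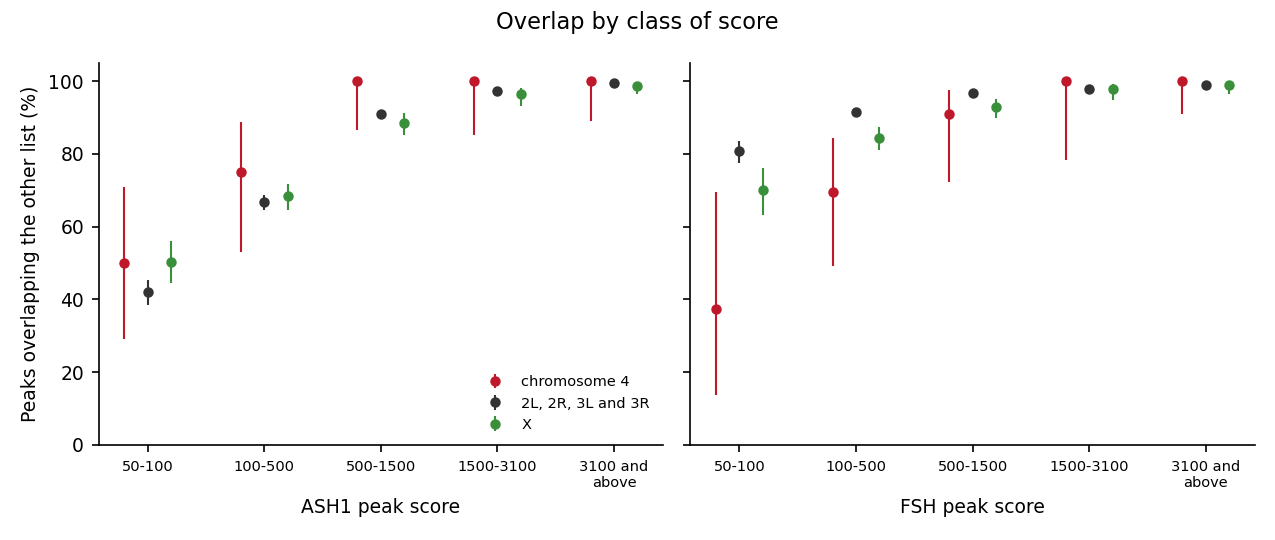
Share of peaks that overlap the other list (vertical axis, %) by class of score for ASH1 on the left and FSH on the right, with Wilson intervals at 95%. For FSH scores of 100 to 500, chromosome 4 had a share of 69.6% (49.1% to 84.4%), below that of the large autosomal arms (91.6%). On X this share was 84.4% (81.0% to 87.3%), and its interval overlapped that of chromosome 4. From 1500 upwards all peaks of chromosome 4 were shared.

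The 14 ASH1 peaks without FSH had scores of 50.1 to 409.6 with a median of 86.0, compared to a median of 1590 for the shared ones. The highest scores were found from 1118174 to 1119107 (409.6), from 865054 to 865594 (179), from 647602 to 648146 (145) and from 690592 to 691335 (145). The others started at 81808, 132251, 173573, 700740, 834285, 968076, 971323, 1053443, 1203339 and 1286294, all with scores of at most 121. Of the 14 peaks, 7 lay within 1 kb of an FSH peak, the nearest at 59 bp. These 7 also had another ASH1 peak within 1 kb, so that each lay close to peaks of both lists. Apart from them stood the peak with the highest score, at 12.4 kb from FSH, and the peak at 132251, at 16.4 kb.

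The 14 FSH peaks without ASH1 had scores of 51.2 to 614 with a median of 124, compared to a median of 2048 for the shared ones. The highest-scoring of them extended from 445143 to 445727 (614), from 110273 to 111167 (558), from 466481 to 467151 (441) and from 933979 to 934647 (221). The remaining ones started at 206035, 209098, 218182, 467194, 670470, 685431, 936188, 995870, 1017408 and 1164897, with scores of at most 147. Only 3 of the 14 were within 1 kb of an ASH1 peak, and the median distance was 3191.5 bp, compared to 1090 bp for the unshared ASH1 peaks. The peak from 110273 was the most remote, at 18.9 kb from ASH1. Several FSH-only peaks were neighbours, namely those at 206035 and 209098, at 466481 and 467194, and at 933979 and 936188.

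No ASH1 peak on chromosome 4 overlapped more than 1 FSH peak, whereas 36 to 61 such peaks were found on each long arm (1.91% to 2.93% of its ASH1 peaks). The Wilson upper limit for 0 of 116 peaks is 3.21% (2.59% if set at 3 counts), so that a difference from the long arms was not detectable at this number of peaks. In contrast, 8 FSH peaks overlapped several ASH1 peaks (7.55%, against 7.67% to 10.7% on the long arms). The FSH peak from 715493 to 718616 spanned 4 ASH1 peaks with scores of 812, 593, 3100 and 2140. The other 7 each spanned 2 ASH1 peaks and started at 149138, 151016, 176030, 201222, 838223, 1048662 and 1050649. Of all 8, 6 had a score of 3100. Under most of them the ASH1 peaks had uneven scores. The scores were alike under the FSH peaks at 1048662 (221 and 239) and 1050649 (3100 and 3100). A score of 3100 was reached by 4 of 18 ASH1 peaks. Among the peaks of chromosome 4, overlaps with several partners were thus found only as 1 FSH peak over several ASH1 peaks. Whether these are separate ASH1 sites or a divided signal cannot be told from the lists. This form was also the more frequent one on the long arms. There, 741 FSH peaks had several ASH1 partners and 239 ASH1 peaks had several FSH partners.

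In the 84 pairs in which 1 ASH1 peak and 1 FSH peak overlapped only each other, FSH was the longer peak 67 times (79.8%), compared to 61.4% to 72.9% of such pairs on the long arms. The ASH1 peak lay entirely inside the FSH peak in 43 pairs (51.2%, against 36.4% to 43.9%). The opposite was seen in 4 pairs (4.76%, against 10.9% to 18.3%). The centres of both peaks were close together, with a median distance of 37.2 bp, and this distance was 44.5 to 61.5 bp on the arms. FSH peaks of chromosome 4 therefore tended to enclose the ASH1 peak, with a median excess in length of 72.5 bp.

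The scores of both proteins ran more in parallel on chromosome 4 than on the arms. For this comparison, each of the 102 shared ASH1 peaks was combined with its highest-scoring FSH peak. Spearman's rho was 0.65 on chromosome 4, 0.32 to 0.38 on 2L, 2R, 3L and 3R, and 0.20 on X. Over 114 windows of 1 Mb with at least 20 pairs, rho ranged from -0.06 to 0.62 with a median of 0.31. No window exceeded chromosome 4. Since many pairs share the value of 3100 and some share an FSH peak, rho was also calculated for pairs with both scores below 3100 and for pairs without further partners. It was 0.68 (n = 48) and 0.75 (n = 84) on chromosome 4, against 0.14 to 0.29 and 0.38 to 0.50 on the long arms. These values describe peaks of pooled libraries and have no replicate check.

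Both partners had scores of 3100 or above in 24 of 102 pairs (23.5%), compared to 4.47% to 10.8% on the long arms. Among the 114 windows, 1 had a higher share (26.5%). Of the 31 ASH1 peaks at 3100, 24 (77.4%) were combined with an FSH peak at or above this value, against 27.7% to 42.8%. In 23 further pairs only FSH reached 3100, and in 7 only ASH1. These shares also carry the higher frequency of such scores on chromosome 4 in each list. It was 36.8% for FSH (13.6% to 20.2% on the long arms) and 26.7% for ASH1 (12.8% to 22.0%). How much of the difference in pairs goes beyond this was not tested. Leaving aside the 24 pairs at the shared value, the FSH partner had the higher percentile rank within its list in 58 of 78 pairs (74.4%), with a median difference of 11.9. On the long arms this was the case in 41.9% to 51.4% of pairs. In these counts of pairs, an FSH peak that spans several ASH1 peaks enters once for each of them.

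**Figure D5:**
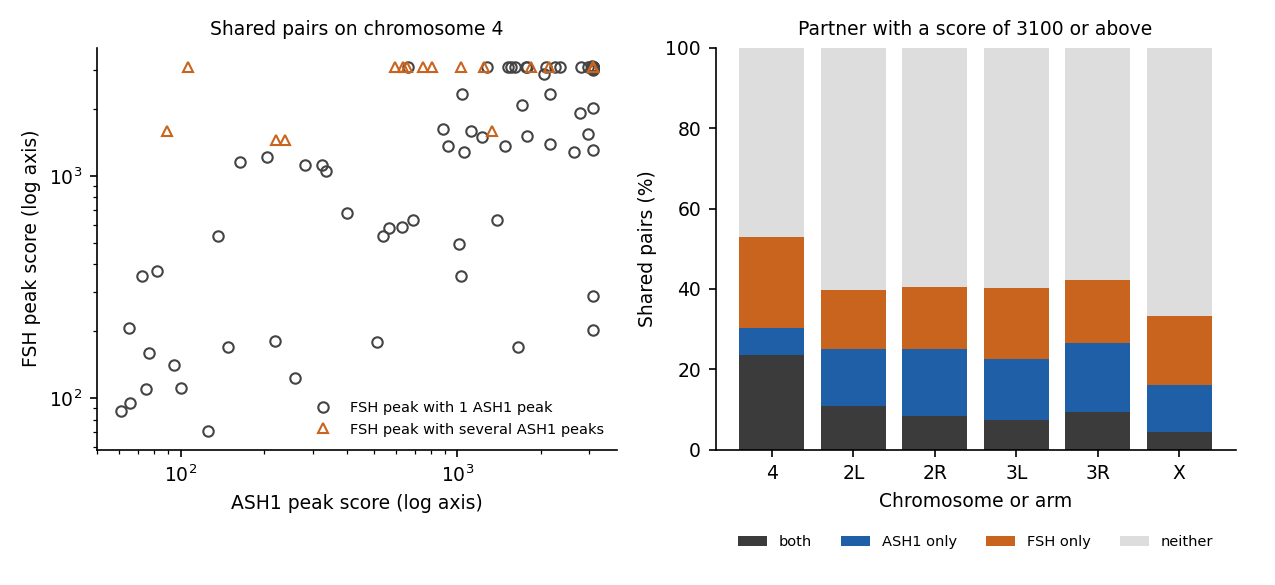
Left, FSH score against ASH1 score (both log axes) for the 102 shared pairs of chromosome 4, with triangles for FSH peaks that span several ASH1 peaks. Right, share of pairs (%) in which both, only ASH1, only FSH or neither partner had a score of 3100 or above. Both partners did so in 23.5% of pairs on chromosome 4 and in at most 10.8% on a long arm.

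The most unequal pairs were the following. By percentile rank, ASH1 was far above FSH from 1292248 to 1293033 (ASH1 3100, FSH 203), from 1009821 to 1010592 (ASH1 3100, FSH 288) and from 502333 to 502851 (ASH1 1656, FSH 170). These peaks had lengths of 519 to 786 bp in ASH1 and 639 to 828 bp in FSH. FSH ranked far above ASH1 at the ASH1 peaks from 838326 to 838837 (ASH1 107, FSH 3100), from 177238 to 177805 (ASH1 89.5, FSH 1594) and from 716435 to 716886 (ASH1 593, FSH 3100). All 3 FSH peaks were among the 8 that span several ASH1 peaks, and a second ASH1 peak under each of them had a higher score of at least 750.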

How the data were processed

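Per the labels and the methods of the study, reads were mapped by the authors to the BDGP Release 5 genome with Bowtie 0.12.7 (versions as in the submitters' processing notes). A read with several matches could be placed at one of them, and reads with more matches than a set limit were discarded. Which parts of chromosome 4 could not yield peaks for this reason was not determined. They merged the libraries of each protein with SAMtools 0.1.9 and determined peaks against input chromatin with MACS 1.4.0 (P value cut-off 1e-05). The deposited score column has no name. Its minimum in both lists, 50.02, lies next to the value that this cut-off would have, 50, if the score is the negative log10 of P multiplied by 10, and it was taken as such. Read numbers behind single peaks are unknown.

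Spans ended at the last peak of either list. Overlap required 1 bp and was checked against BEDTools 2.31.1 (12 of 12 counts were equal) and tested on simulated data. Positions count from 1. Percentile ranks refer to the whole list, with ties averaged. Windows with fewer than 20 peaks or pairs were left out for shares and rho. Intervals of medians are binomial. The regions named are the first, last and longest peaks, all unshared peaks, the largest groups and stretches, FSH peaks with several partners and the pairs of most unequal rank. Members and measures were chosen with earlier results of these data known. Alternatives were a stricter overlap, higher score limits, joined neighbours, other gaps, bins and spans, and arms without their ends. Gene numbers are from a RefSeq table of Release 6. Calculations used pandas 2.3.3 and numpy 2.4.6 in Python 3.11.15, with scipy 1.17.1 for intervals and matplotlib 3.10.9 for plots.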

Additional observations from a re-analysis of the deposited data

How the results depend on the processing

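Of 43 alternative values for 25 results, 36 stayed within the interval of the share or median, or within 1.5 times the other values. With an overlap of at least 50% of both peaks, the shared part was 70.7% for ASH1 and 77.4% for FSH. A score of at least 100 in both lists gave 93.9% for ASH1. After neighbours within 1 kb had been joined, there were 56.4 ASH1 groups per Mb, their median length was 1256 bp (1150.5 bp in FSH), and 35.5% of them reached a score of 3100. The last alternative was chosen after seeing the data. Under joining, chromosome 4 had fewer ASH1 groups per Mb than any long arm (56.4 against 61.5 to 72.3). With peaks of at least the median score in both lists, the FSH share on chromosome 4 (87.9%) was above all long arms (62.9% to 81.1%). With a score of at least 100, or after joining, the FSH share stayed below all of them. The share of FSH groups at 3100 after joining (42.3%) stayed above the arms (16.0% to 23.3%). No paired analysis was possible because the peak lists used here hold both libraries of a protein, and no replicate could be left out for the same reason. Reads of single libraries were not analysed here.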
